A study of Mus musculus with 24 samples.

Results

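Long intergenic noncoding RNAs (lincRNAs) are transcripts made from stretches of the genome that lie between protein-coding genes. Many are spliced and polyadenylated like messenger RNAs, most are present at low levels, and many are found in few cell types. In adipose tissue, some are induced as precursor cells become fat cells and others are found in the immune and vascular cells that lie between the fat cells. The array used here carried, beside probes for named genes, a catalogue of such transcripts in which each probe is identified only by a genomic region and a strand. These probes are described here: 16181 of the 55681 non-control probes, chosen by a name that begins with A_30_P and an annotation that is a chromosomal region ending in F or R. The suffix was read as the forward or reverse strand. Another 13 probes of the same name series gave a region without a strand and were not counted. All regions are given in the mouse build mm9, as named in the file headers. Which genes lie beside or within a region was not examined, so that "intergenic" is the catalogue's term.

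The tissue, a fat pad that adjoins the testis (epididymal white adipose tissue), came from 24 male C57BL/6JRcc mice aged 28 or 29 weeks, housed singly. All ate a semi-synthetic diet with 40% of its energy from fat and 0.115% tryptophan, an amino acid from which NAD can be made. For 18 weeks, 12 mice (Ctrl NR) had 30 mg per kg of a vitamin B3 form, nicotinamide riboside (NR), in this diet and 12 mice (No NR) had 0 mg, after 2 weeks on the Ctrl NR diet for all. Every mouse was fed little during the dark phase and refed 1.8 g for 4 hours before death. Each mouse's Cy5-labelled RNA was hybridised on its own array against a Cy3-labelled pool of fat-pad RNA that also contained other diets and 4 female samples. Values below are log2 ratios of Cy5 over Cy3, so a value of 0 is the level of the pool, and every change is given as No NR minus Ctrl NR.

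Of the tissue's marker lists, 25 of 25 adipocyte genes and 28 of 30 macrophage genes were detected, as were 16 of 16 endothelial, 10 of 10 mesothelial, 11 of 11 stromal progenitor and 9 of 14 lymphocyte genes. Of 14 genes of epididymis and testis, 5 were detected, and their mean lay between -1.31 and 1.83 in Ctrl NR and between -1.46 and 0.78 in No NR. Their part in the results below was not tested. The 5 slides each held mice of both diets. In log2 ratio, 1 region probe differed between slides (limma F test, adjusted p under 0.05), 0.0318% of those tested, against 0.00841% of all probes. Identical Cy5 signals were found in 0 pairs of arrays. The number of arrays limits the precision of every value.

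For most region probes, no array gave a signal well above background in this tissue. A probe counted as detected when the scanner software put its Cy5 signal well above background on 12 or more of the 24 arrays. This held for 3148 region probes (19.5%), against 42.7% of all non-control probes, 61.0% of probes with an mRNA accession and 30.3% of probes with the accession of a noncoding RNA. No array gave a signal well above background for 10168 region probes (62.8%), and 1339 (8.28%) were well above background on every array. Between 10.4% and 28.0% of the region probes were detected on a single array, with a median of 20.3%. The Ctrl NR mice had 1686 to 4185 such probes (median 2966.5) and the No NR mice 2049 to 4533 (median 3515), so the diets overlapped over most of their range. The number also went with the slide. Arrays of slides 1 and 2 had 1686 to 2699 such probes, those of slides 3 and 4 had 3044 to 4533, and those of slide 5 had 2341 to 3526. The part of slide in detection was not tested.

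**Figure D1:**
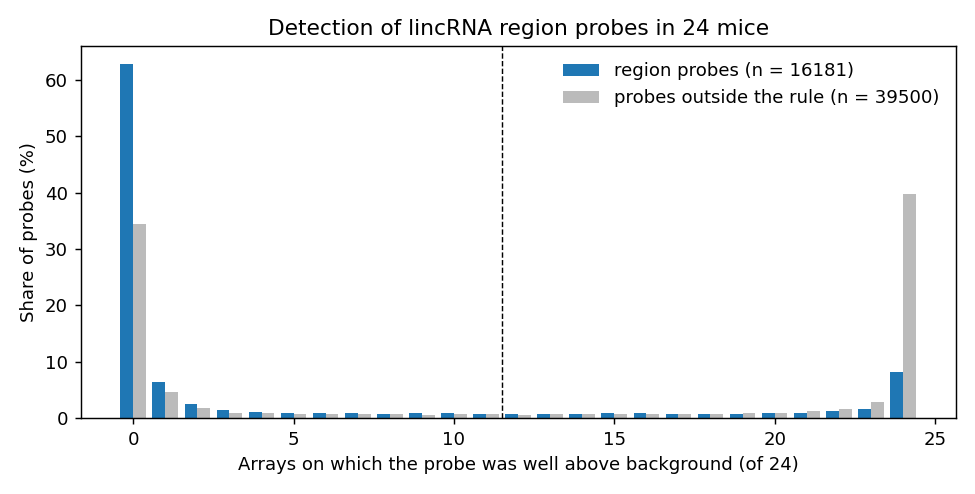
Share of probes (y axis, percent) by the number of arrays, of 24, on which the Cy5 signal was well above background (x axis), for the 16181 region probes (blue) and the 39500 other non-control probes (grey). The dashed line marks the limit of 12 arrays. At 0 arrays the region probes reach 62.8% and the others 34.5%, and at 24 arrays the region probes reach 8.28% and the others 39.7%.

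Detected probes came from 1479 of the 3540 regions (41.8%), and 737 of these regions had a single detected probe. A region measured between 62 and 7128487 bases, with a median of 7315.5. Of the 3382 combinations of region and strand with at least 3 probes, 204 had every probe detected, 1197 had some and 1981 had none. The share with a detected probe was 26.4% in the shortest of 5 length classes of region strands (62 to 834 bases) and 45.0% in the longest. By single probe it lay between 15.4% and 20.9% in all 5 classes. On the forward strand, 1493 of 8171 probes (18.3%) were detected, and on the reverse strand 1655 of 8010 (20.7%). By chromosome, the share was highest on 19 (84 of 322, 26.1%) and lowest on 10 (102 of 720, 14.2%).

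For 1067 regions the array carried probes on both strands. Both strands were detected in 257 of these regions, the forward strand alone in 199, the reverse strand alone in 251 and neither in 360. Many region strands had only some of their own probes detected, so these counts do not show how far a signal was tied to a strand. The detected probes show how the limit works. Just inside it, on 12 arrays, lay 122 probes such as A_30_P01017434 (chr1:134237581-134248506, reverse), at 0.01 ± 0.23 in Ctrl NR and at 0.09 ± 0.18 in No NR (SD, n = 12 each). Just outside, on 11 arrays, lay 113 probes such as A_30_P01017478 (chr5:125190100-125209625, reverse), at 0.09 ± 0.14 and 0.06 ± 0.11 (SD, n = 12 each). The median Cy5 intensity of these examples was 61.5 and 54.25, so that the limit falls within a continuous range of dim signals.

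Probes of the same region and strand tended to vary together over the mice, and probes of opposite strands of a region less so. The likeness of 2 probes is given as Pearson's r over the 24 mice after the mean of each diet was taken off. Its median was 0.35 for the 2614 pairs of the same region and strand, 0.09 for the 1262 pairs on opposite strands of a region and 0.02 for all 4953378 pairs of detected region probes. For probes detected on every array these medians were 0.52 over 987 same-strand pairs and 0.17 over 267 opposite-strand pairs. An r over 0.5 was reached by 34.9% of the same-strand pairs, 10.1% of the opposite-strand pairs and 3.83% of all pairs. Same-strand probes of different regions 10 to 100 kb apart had a median r of 0.20, and opposite-strand probes at that distance 0.03. Regions up to 10 kb apart showed no such order, with medians of 0.16 over 228 same-strand pairs and 0.17 over 172 opposite-strand pairs. Pairs share probes and arrays, so these values are a description and were given no test.

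**Figure D2:**
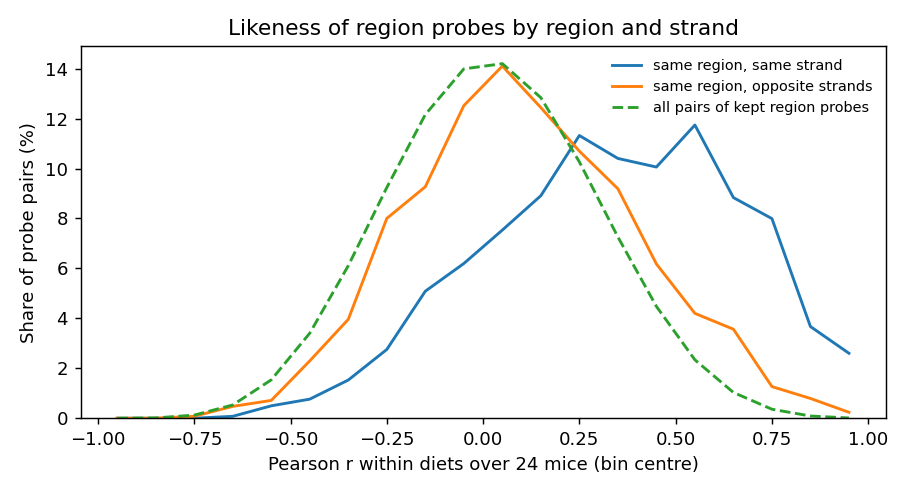
Share of probe pairs (y axis, percent) by Pearson's r within diets over 24 mice (x axis, bins of 0.1), for pairs of the same region and strand, pairs on opposite strands of a region, and all pairs of the 3148 detected region probes. The same-strand curve lies to the right, with a median of 0.35, and the opposite-strand curve close to that of all pairs, with medians of 0.09 and 0.02.

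Some pairs of probes went against this pattern. In the region chr14:115423660-115463160, the forward probe A_30_P01028277 and the reverse probe A_30_P01031683 followed each other at an r of 0.91. In chr17:39960567-39992817, the reverse probe A_30_P01028735 followed the forward probes A_30_P01021775 (r 0.91) and A_30_P01029653 (r 0.89). The forward probe A_30_P01020570 and the reverse probe A_30_P01031264 of chr12:73838608-73862621 also reached 0.91, and A_30_P01023896 and A_30_P01027463 of chr5:34696192-34722842 reached 0.88. At the other end, single probes on opposite strands of a region ran in opposite directions. The lowest r was -0.80, between the forward probe A_30_P01021633 and the reverse probe A_30_P01018056 of chr2:168804720-168854970. Next came A_30_P01024700 and A_30_P01018881 of chr17:46972160-46997919 (r -0.67), A_30_P01022732 and A_30_P01021253 of chr15:85412264-85549139 (r -0.65), A_30_P01031621 and A_30_P01033438 of chr18:36449530-36456800 (r -0.64) and A_30_P01031864 and A_30_P01027362 of chr11:95627874-95640824 (r -0.64). These are the 5 highest and 5 lowest of 1262 pairs, chosen for their values. A single pair does not describe the strands of its region as a whole. Over all opposite-strand pairs of chr11:95627874-95640824, the median r was 0.29.

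The region with the most detected probes, chr4:129497990-129515290, had 14, of which 10 of 10 were forward and 4 of 7 reverse. Their changes between diets ran from -0.14 to 0.32, with 12 above 0, and probes of the same strand had a median r of 0.66 with each other. In chr11:95627874-95640824, 7 of 10 forward and 6 of 9 reverse probes were detected, with changes from -0.22 to 0.05. In chr16:43623581-43642715, all 10 forward probes and 2 of 10 reverse probes were detected, with changes from -0.17 to 0.07. Even within a region, then, probes of the same strand could differ, since the lowest same-strand r was -0.25, -0.38 and 0.19 in these 3 regions.

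The main comparison asked whether the level of any region transcript differed between mice fed with and without NR. No region probe passed an adjusted p of 0.05 (limma, Benjamini-Hochberg over all 23781 detected probes), as was the case for 0% of all detected probes, and the lowest adjusted p of a region probe was 0.0750. Before adjustment, 496 of 3148 (15.8%) had a p under 0.05, against 14.2% of all detected probes. Of them, 312 (9.91% of the region probes) were higher in No NR and 184 (5.84%) lower, where all detected probes had 6.6% and 7.58%. The share of higher probes among these 496 was 62.9%, against 46.6% among all detected probes at that p. It was 72.5% (against 53.8%) with the scanner software's processed signals, 73.0% (against 57.6%) without background subtraction and 76.4% (against 55.2%) with the Cy5 signal alone. It was 56.0% (against 46.9%) without a filter on dim probes and 58.0% (against 40.7%) in the authors' value table. When 1 mouse was left out it ran from 54.3% (against 44.9%), without Ctrl NR 117, to 69.0% (against 49.5%), without Ctrl NR 75. With median centring in place of loess it was 40.0% of 60 (against 24.3%), where 1.91% of the region probes and 1.06% of all had such a p. Among probes detected on every array, 9.63% of the region probes were higher at that p and 8.44% lower, against 6.27% and 8.7% of all. Some cell type marker lists also leaned to 1 side between the diets, though 0 genes of any list were called. Of 28 macrophage genes, 27 were above 0 in their change (median 0.32), 3 of them at an unadjusted p under 0.05. Below 0 were 13 of 16 endothelial genes, 6 of them at such a p, and 10 of 10 mesothelial genes, 0 of them at such a p. Of all detected probes, 46.6% had a change above 0. The part of these lists in the region probes' differences was not tested. The median change was -0.00 for the region probes and -0.01 for all detected probes. The middle range of changes, from the lower to the upper quartile, ran from -0.08 to 0.08, and 24 region probes (0.762%) changed by more than 0.5 in either direction, against 0.643% of all.

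The count of 0 depended on single mice and on how arrays were weighted. Without Ctrl NR mouse 117, 50 region probes passed (1.59%, against 1.14% of all detected probes), and without Ctrl NR mouse 68 also 50 (against 1.06%). Without mouse 104 there were 15 (0.476%, against 0.425%), without mouse 77 8 (0.254%, against 0.193%) and without mouse 75 3 (0.0953%, against 0.135%), all of these Ctrl NR. Leaving out any other mouse gave 0. Mice 117, 68, 104 and 77 had the lowest Ctrl NR means, from -0.79 to -0.37, in the set of 13 probes described below. The No NR mice ran from -0.58 to -0.21 there, and mouse 75 had the highest mean, 1.11. With array weights 75 region probes passed (2.38%, against 1.78% of all), 44 of them higher in No NR. With the limit on the adjusted p raised to 0.10, 32 region probes (1.02%) from 30 regions passed, against 0.828% of all detected probes. Of these, 15 were higher (0.476%, against 0.412% of all) and 17 lower (0.54%, against 0.416%). With slide as a fixed block, median centring, the Cy5 signal alone or no filter on dim probes, 0 region probes passed this limit, and with slide as a fixed block the lowest adjusted p was 0.163. This count also depended on single mice. It was 0 without Ctrl NR 115, 108, 64, 84 or 95 (at most 0.0168% of all detected probes). It was also 0 without No NR 101, 114, 61, 70, 81, 90, 94 or 98 (at most 0.0168% of all). Without Ctrl NR 88 it was 2 (against 0.0336% of all), and without Ctrl NR 117 it was 135 (against 3.64%).

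The 6 region probes with the lowest p that were higher in No NR lay on chromosomes 1, 6, 13, 14 and 18, and each had an adjusted p of 0.0750 (limma), which misses the threshold. A_30_P01032372 (chr18:69923410-69965360, forward) was at -0.20 in the lowest, 0.17 in the median and 0.38 in the highest Ctrl NR mouse, and at 0.29, 0.50 and 0.94 in No NR. Of the 12 No NR mice, 10 lay above every Ctrl NR mouse, and the difference was 0.38 ± 0.07 (SE, n = 12 per diet). It was the only detected probe of 5 on this strand of its region, and was well above background on 9 Ctrl NR arrays and 12 No NR arrays. A_30_P01024315 (chr14:105497388-105511063, reverse) ran from -0.50 through -0.10 to 0.05 in Ctrl NR and from -0.07 through 0.21 to 0.25 in No NR. Of the No NR mice, 11 lay above every Ctrl NR mouse, and the difference was 0.30 ± 0.06 (SE, n = 12 per diet). Its 3 other detected same-strand probes differed by 0.08 to 0.25, and the 1 detected forward probe of the region by -0.00.

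A_30_P01017920 (chr13:108653722-108654406, reverse) had the widest difference of the 6. It ran from -0.62 through -0.31 to 0.38 in Ctrl NR and from -0.07 through 0.17 to 0.68 in No NR. Of the Ctrl NR mice, 9 lay below every No NR mouse, and the difference was 0.50 ± 0.10 (SE, n = 12 per diet). The 2 other probes of this strand differed by 0.34 and 0.46 and followed it at r 0.75 and 0.77, so that all 3 probes designed for the region shared the direction. A_30_P01028933 (chr6:31007184-31007725, reverse) was likewise 1 of 3 detected probes of 3. It was at -0.26 ± 0.32 in Ctrl NR and at 0.19 ± 0.12 in No NR (SD, n = 12 each), and its neighbours differed by 0.25 and 0.42. A_30_P01030216 (chr14:62294849-62301165, reverse) went from -0.41 ± 0.28 to 0.05 ± 0.22 (SD, n = 12 each), and the second probe of its region differed by 0.43. A_30_P01022349 (chr1:139806645-139809498, forward) went from -0.21 ± 0.14 to 0.05 ± 0.10 (SD, n = 12 each) and had no other detected probe. It was well above background on 6 Ctrl NR arrays and 11 No NR arrays. With the scanner software's processed signals its difference was 0.93 in place of 0.26, and those of A_30_P01028933, A_30_P01030216 and A_30_P01032372 were 0.75, 0.77 and 0.60. Within each of the 5 slides, all 6 probes were higher in No NR, except A_30_P01017920 on slide 3 (-0.02). Slides held 2 to 4 Ctrl NR mice and 1 to 3 No NR mice. The 6 probes were chosen for their difference over these same mice, so their directions by slide are a description. Of all 12 leading probes, 1 also followed the mean of the macrophage genes described below, A_30_P01030216, with a slope of 0.17 (limma adjusted p 0.0434). This call was lost without the 2 mice farthest from the median of that mean (limma adjusted p 0.0827).

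Of the 6 leading probes that were lower in No NR, 4 were the only detected probe of their region strand, as were 2 of the 6 higher probes. A_30_P01020202 (chr12:81719382-81731865, forward) was at -0.26 in the lowest, 0.23 in the median and 0.84 in the highest Ctrl NR mouse, and at -0.30, -0.15 and -0.00 in No NR. Of the Ctrl NR mice, 10 lay above every No NR mouse, and the difference was -0.39 ± 0.08 (SE, n = 12 per diet, limma adjusted p 0.0750). The other detected probe of its strand differed by 0.05, so the probes of this region did not share a direction. A_30_P01018039 (chr16:8738782-8830148, reverse) went from -0.03 ± 0.39 to -0.56 ± 0.25 (SD, n = 12 each, limma adjusted p 0.0761). Its 1 same-strand neighbour followed it at r 0.83 and differed by -0.15. A_30_P01026426 (chr1:45066850-45095650, reverse) went from 0.06 ± 0.10 to -0.18 ± 0.14 (SD, n = 12 each, limma adjusted p 0.0771). It was well above background on 12 Ctrl NR arrays and 7 No NR arrays. The differences of A_30_P01020202 and A_30_P01026426 were -0.72 and -0.60 with the processed signals, that of A_30_P01026426 was -0.15 with median centring, and that of A_30_P01018039 was -0.34 with the Cy5 signal alone.

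The remaining 3 of these lower probes had the widest differences and the widest spread in Ctrl NR. A_30_P01026872 (chr3:34003359-34537330, forward) ran from -0.43 through 1.07 to 1.51 in Ctrl NR and from -0.74 through -0.23 to 0.35 in No NR, a difference of -0.93 ± 0.22 (SE, n = 12 per diet, limma adjusted p 0.0750). A_30_P01020420 (chr10:116814196-116920696, reverse) differed by -0.87 ± 0.21 (SE, limma adjusted p 0.0761) and A_30_P01027278 (chr13:112210279-112212150, reverse) by -0.77 ± 0.18 (SE, limma adjusted p 0.0750). In each of these probes, 8 of the 12 Ctrl NR mice lay above every No NR mouse and the other 4 lay within the No NR range. All 6 lower probes were lower in No NR within each of the 5 slides, but they too were chosen for their difference over these mice.

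**Figure D3:**
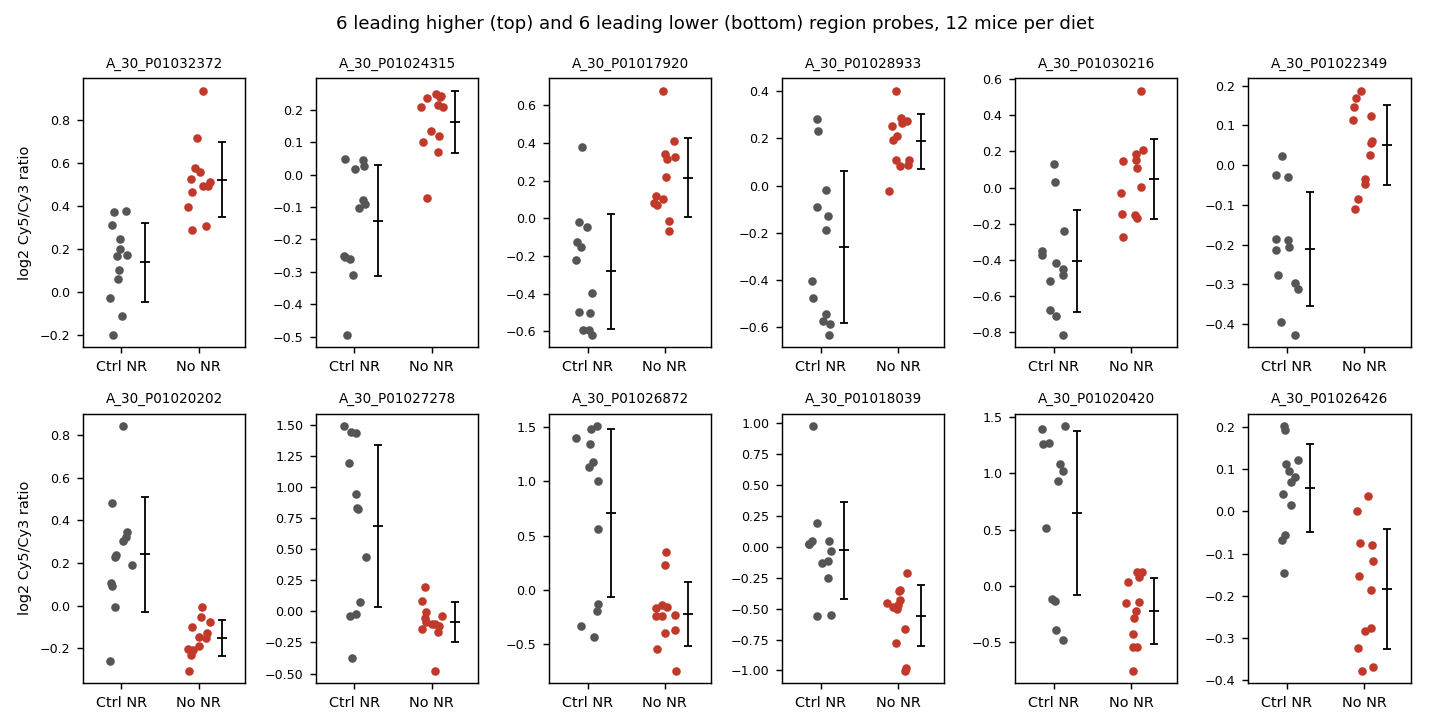
Log2 Cy5/Cy3 ratio (y axes, own scale per panel) of the 12 leading region probes in the 12 Ctrl NR (grey) and 12 No NR (red) mice, with the mean and SD of each diet in black. The 6 higher probes are in the top row and the 6 lower probes in the bottom row; A_30_P01026872, A_30_P01020420 and A_30_P01027278 show 8 high Ctrl NR mice above all No NR mice.

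Those 3 probes belonged to a larger set that varied together. They were found by their likeness to A_55_P2138100, a probe outside the catalogue without a gene name that earlier work on these data had singled out for its difference between the diets. With an absolute r over 0.8 within diets to that probe, 14 region probes (0.445%) were counted, against 0.29% of all detected probes. They lay in 10 regions on 7 chromosomes. The 13 that varied in its direction had pairwise r between 0.66 and 0.97, with a median of 0.86. Their mean was 0.36 ± 0.71 in Ctrl NR, from -0.79 to 1.11, and -0.40 ± 0.13 in No NR, from -0.58 to -0.21 (SD, n = 12 each). The spread in Ctrl NR was thus wider than in No NR, and 8 of 12 Ctrl NR mice lay above every No NR mouse. Since the reference probe was chosen for its diet difference, that of the set is a description and has no test.

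The set held several probes of 1 region. In chr7:4827340-4863315 on the forward strand, 6 of 10 probes were detected and 5 of these belonged to the set. A_30_P01029235 differed most, from -1.48 through 0.58 to 1.31 in Ctrl NR and from -1.01 through -0.72 to -0.53 in No NR. The other 4, A_30_P01029418, A_30_P01029750, A_30_P01027439 and A_30_P01023579, differed by -0.81, -0.89, -0.69 and -0.64. A probe of the shorter overlapping region chr7:4828654-4843713, A_30_P01023903, differed by -0.77. The sixth detected forward probe, A_30_P01026371, differed by -0.18 and followed A_30_P01029235 at an r of 0.26. The 1 detected reverse-strand probe differed by -0.13, with an r of 0.25. On the macrophage mean, A_30_P01029750, A_30_P01027439 and A_30_P01023903 had slopes of -0.41, -0.37 and -0.38 (limma adjusted p 0.0252, 0.0117 and 0.0205). The part of macrophage level in their difference between diets was not tested.

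The remaining members of the set were mostly single probes. A_30_P01018083 (chr1:183951156-183986156, forward) differed by -0.75, A_30_P01019207 (chr10:95772764-95825001, forward) by -0.89 and A_30_P01021550 (chr19:55715078-55776694, reverse) by -0.61, and each was the only detected probe of its strand among 3 to 5. A_30_P01029719 (chr17:46972160-46997919, reverse), 1 of 4 detected probes of 10, differed by -0.36. A_30_P01025757 (chr3:9635102-9661327, forward) ran against the others, at -0.18 ± 0.34 in Ctrl NR and at 0.07 ± 0.14 in No NR (SD, n = 12 each). The first principal component of all detected region probes held 23.3% of their variance and had an r of -0.90 with the mean of the 13.

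**Figure D4:**
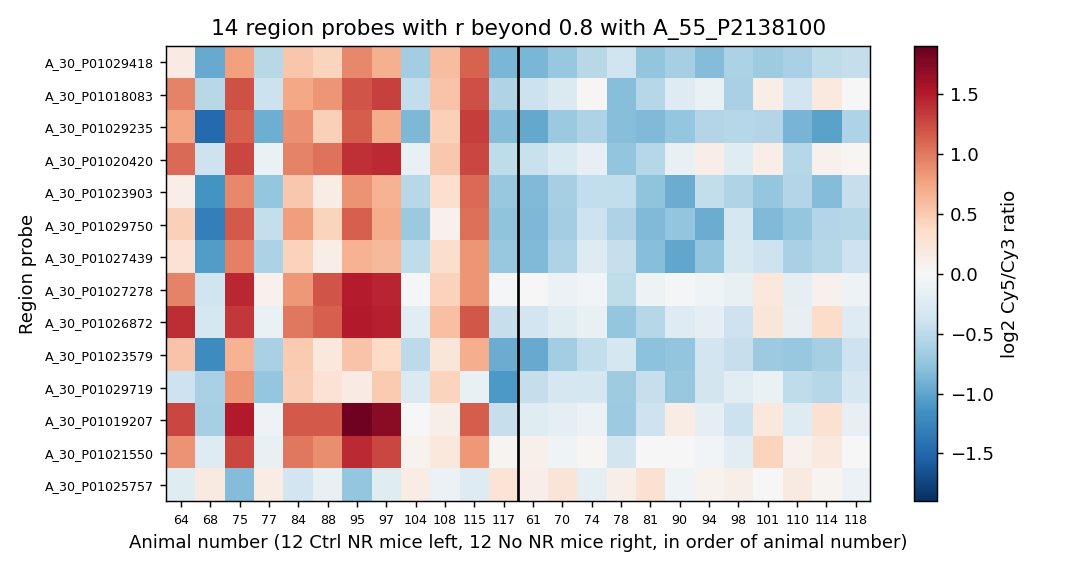
Log2 Cy5/Cy3 ratio (colour, red above and blue below the pool) of the 14 region probes (rows) in 24 mice (columns by animal number, 12 Ctrl NR left of the line and 12 No NR right). In the upper 13 rows, 8 of the 12 Ctrl NR columns have a mean above every No NR column; the lowest row, A_30_P01025757, runs the other way.

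Named genes that varied like the leading probes within diets were sought among 12748 detected genes, up to 3 for each of the probes with the 2 lowest p per direction, over 24 mice. For A_30_P01032372 these included Rab21 (r -0.66), a small GTPase of endosomes, and Ern1 (r -0.65), a sensor of unfolded protein in the endoplasmic reticulum. For A_30_P01024315 they were Rnf145 (r 0.76), Tug1 (r 0.75), itself a long noncoding RNA, and Pfdn6 (r 0.74), a prefoldin subunit. A_30_P01020202 ran with Sema6c (r 0.85) and against Ampd3 (r -0.86), an AMP deaminase, and Nudt9 (r -0.86), an ADP-ribose hydrolase. A_30_P01027278, of the set above, ran with Fmr1nb (r 0.94), Zfp369 (r 0.94) and the olfactory receptor gene Olfr1500 (r 0.94). These are the highest of many values and carry no test.

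A second axis of the tissue was the level of macrophage genes. The macrophage list of 28 detected genes, such as Adgre1, Cd68 and Csf1r, had a mean from -1.61 to 0.69 in Ctrl NR and from -1.04 to 0.65 in No NR. Its mean ran against those of the adipocyte list (r -0.96 within diets) and the endothelial list (r -0.77), and with that of the stromal progenitor list (r 0.82). Whether mice differed in the number of macrophages or in RNA per macrophage cannot be told apart in whole tissue. With diet in the model, 464 region probes (14.7%) followed the macrophage mean (limma, adjusted p under 0.05 over all detected probes), against 26.9% of all detected probes. The slope was positive for 253 (8.04%, against 16.5% of all) and negative for 211 (6.70%, against 10.4%). The split moved with the scaling: the Cy5 signal alone gave 168 positive and 273 negative slopes (12.8% and 12.3% of all detected probes), and the authors' value table gave 136 positive and 772 negative of 2941 (14.1% and 21.4% of all). Among probes detected on every array, 22.2% of the region probes and 31.4% of all probes followed it. With slide as a term 443 region probes did (14.1%, against 27.2% of all), and without the 2 mice farthest from the median of the macrophage mean 437 (13.9%, against 26.2%). With median centring in place of loess, the median slope of all detected probes moved from 0.01 to 0.31, and 2133 region probes (67.8%, against 84.7% of all) had a called slope, all of them positive.

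The 464 probes lay in 307 regions, and 90 regions had at least 2 of them. In 87 of these 90 the slopes shared a direction. The probe with the lowest p was A_30_P01020072 (chr7:128341797-128414692, reverse), at -0.92 in the lowest, 0.04 in the median and 0.95 in the highest Ctrl NR mouse, and at -0.63, 0.51 and 0.89 in No NR. It rose by 0.74 ± 0.05 (SE, n = 24) per unit of the macrophage mean (limma adjusted p 8.17e-13). All 4 other probes designed for this strand were detected, with slopes of 0.55 to 0.60 and r of 0.86 to 0.95 with it. A_30_P01024579 (chr9:65368908-65377592, reverse) had a slope of 0.99 ± 0.07 (SE, n = 24), and its 2 neighbours had slopes of 0.40 and 0.77. A_30_P01019537 and A_30_P01021447, 2 of the 3 probes of chr1:175653557-175671940 on the reverse strand, had slopes of 0.72 and 0.71, and the third had 0.58. A_30_P01019123 (chr17:95150800-95180650, forward) had a slope of 0.62 ± 0.06 (SE, n = 24), while the detected reverse-strand probe ran against it (r -0.43).

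Other region probes were lower in the mice with higher macrophage means. A_30_P01020518 (chr9:78104935-78116974, forward), the only probe of its region strand, ran from -0.66 through 0.03 to 0.65 in Ctrl NR and from -0.40 through -0.07 to 0.86 in No NR. It fell by 0.49 per unit of the macrophage mean, with an SE of 0.05 (n = 24, limma adjusted p 1.02e-08). A_30_P01027254 (chr6:67052066-67119366, reverse) had a slope of -0.59 ± 0.07 (SE, n = 24). A_30_P01020751 and A_30_P01028806 (chr2:136327645-136341251, forward) had slopes of -0.41 and -0.48, and the other detected probe of the region had -0.35. A_30_P01028388 (chr15:85502461-85524051, reverse) had a slope of -0.34, but the other detected probe of its strand had -0.02. Because the list means ran together, a slope on the macrophage mean cannot be told apart from a slope on those of the adipocyte, endothelial or stromal progenitor lists. With median centring, the slopes of A_30_P01020518, A_30_P01020751, A_30_P01028806 and A_30_P01028388 were above 0, at 0.019, 0.22, 0.17 and 0.087, and that of A_30_P01027254 was -0.017 and no longer passed (limma adjusted p 0.862). All 5 lay below the median slope of all detected probes in that setting, 0.31.

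**Figure D5:**
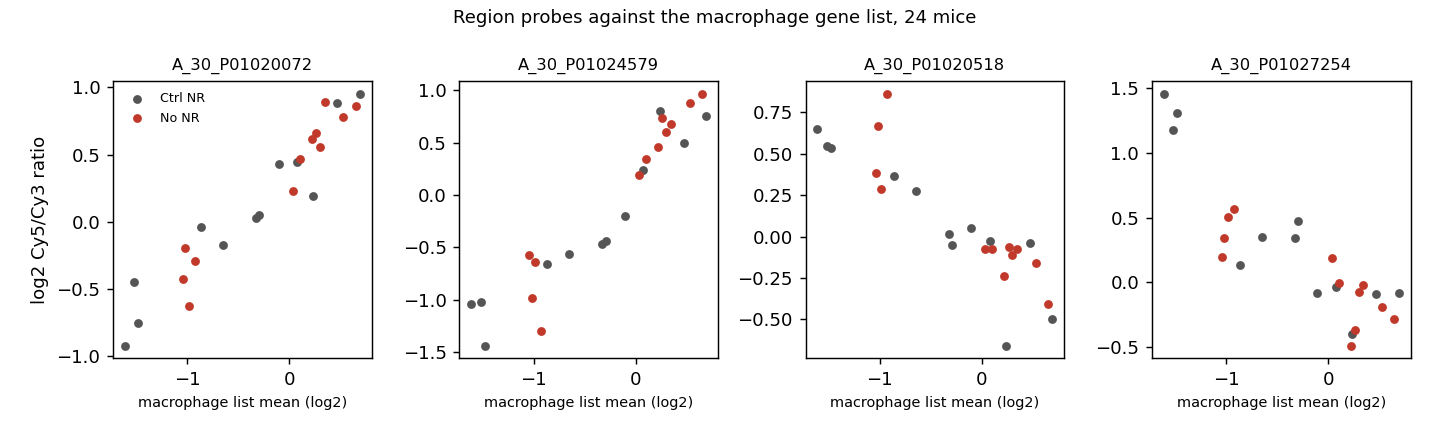
Log2 Cy5/Cy3 ratio (y axes) of 4 region probes against the mean log2 ratio of the macrophage list (x axes) in 12 Ctrl NR (grey) and 12 No NR (red) mice. A_30_P01020072 and A_30_P01024579 rise with the list (slopes 0.74 and 0.99) and A_30_P01020518 and A_30_P01027254 fall (slopes -0.49 and -0.59). The x axis runs from -1.61 to 0.69 in Ctrl NR and from -1.04 to 0.65 in No NR.

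Among the 5 region probes with the largest SD over the mice, 4 had a single far value, each in No NR mouse 74, and an SD of 0.10 to 0.21 without that mouse. A_30_P01030421 (chr4:82156098-82196298, reverse) was at 5.83 in that mouse, and its SD was 1.20 over 24 mice and 0.21 without it. A_30_P01030292 (chr7:35405125-35415223, reverse) was at 5.29, A_30_P01028509 (chr5:110424250-110443025, forward) at 4.02 and A_30_P01031270 (chr2:104657075-104658840, forward) at -5.18. In all, 6 region probes of that array deviated by more than 2 from their median, and their spots lay in rows 374 to 379 and columns 151 to 163 of an array of 384 rows and 164 columns. The Cy5 intensity at A_30_P01030421 was 24454.7 there, against a median of 121 on the other arrays, and its local background was 8420.5, against 33. At A_30_P01031270 the local background (18461) exceeded the spot (8486.5). These spots carried no outlier mark. On the array of No NR mouse 118, 3 region probes in rows 314 to 315 and columns 163 to 164 also deviated by more than 2 from their median, with local Cy5 backgrounds of 2431 to 4090, against a median of 33 on the other arrays. Another 3 region probes deviated as far on the array of Ctrl NR mouse 108, in rows 102 to 263 and with local backgrounds of 34 to 40, and 1 on that of No NR mouse 110. The remaining one of these 5 probes, A_30_P01029235 (SD 0.84), is the chromosome 7 probe described above. Without mouse 74 the diet difference went from 0.56 to 0.08 for A_30_P01030421, from 0.58 to 0.15 for A_30_P01030292, from 0.43 to 0.11 for A_30_P01028509 and from -0.39 to 0.05 for A_30_P01031270, and no leading probe of either direction was among these.

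Catalogue probes named for known noncoding RNAs, 57 in number, give a comparison outside the region probes, and 15 of them were detected. All 5 probes of NEAT1, the RNA scaffold of nuclear paraspeckles, were higher in No NR by 0.58 to 0.73 (limma adjusted p 0.0772 to 0.125), short of the threshold. The 3 probes of NEAT2, also called Malat1, a nuclear speckle RNA, differed by 0.29 to 0.38, and the 5 of TUG1 by 0.08 to 0.12. The remaining 2 detected probes, of KCNQ1ot1 and NRON, differed by -0.04 and -0.05. Of a list of 38 named noncoding RNAs, 23 were matched by name to other probes of the array, and 19 of these were detected. Of the 19, 17 had a change above 0, against 46.6% of all detected probes. An unadjusted p under 0.05 was found for 6, all 6 higher in No NR, against 6.6% of all detected probes. These 6 include RNAs that the catalogue also names: Neat1, Malat1 and Kcnq1ot1. Through this other probe Kcnq1ot1 differed by 0.21, so its 2 probes did not share a direction. The median of the list was 0.12, against -0.01 for all probes. Meg3, an imprinted maternally expressed RNA, differed by 0.46 ± 0.12 (SE, n = 12 per diet, limma adjusted p 0.0991) and Neat1 by 0.52 ± 0.16 (SE, limma adjusted p 0.143).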

How the data were processed

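RNA of 24 mice was read on 24 Agilent 2-colour arrays, Cy5 for the mouse and Cy3 for a pool, in the same dye orientation throughout. Per the file headers, Agilent Feature Extraction (version 10.7.3.1) made the deposited scanner files, whose linear spot intensity values come with yes-or-no flags for detection and outliers. Median spot intensities were used, since they are what the files hold. The authors' deposited value table holds log2 values that followed the log2 Cy5 signal (r at least 0.99), with equal column medians of 8.04; its normalization is not given in the sources used here, and it served as an alternative. Processed intensities of the authors' scanner software were given for each spot as well.

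Background was corrected with normexp (offset 50), and ratios were normalized by loess within arrays, giving control spots a weight of 0 (limma 3.58.1, R 4.3.3). Outlier-flagged spots were left out (0.0331% of values missing among detected region probes) and spots of a probe averaged. Diets were compared over all 23781 detected probes (lmFit, eBayes, Benjamini-Hochberg); slopes on the macrophage mean had diet as a second term. A RefSeq table (GRCm38.p6, used for names only) gave 1 symbol to 27235 of 55681 probes. The method was tested on simulated data.

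Probes named are the 6 per direction with the lowest p between diets, 5 per direction for the slope, the 5 largest SDs, the 5 highest and lowest strand pairs, examples at the detection limit and the 3 regions with most detected probes. The members and lists were chosen with earlier results of these data known. A result that the naming rule would give but that is withheld is left out.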

Additional observations from a re-analysis of the deposited data

How the results depend on the processing

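No paired analysis was possible because the diets share no animal number. Among 13 other settings, the count of region probes called between diets was 0 in 12 and 75 with array weights, and it ran from 0 to 50 when 1 mouse was left out. The count at an unadjusted p under 0.05 was 60 with median centring in place of loess and 1181 of 16181 without a filter on dim probes, and 405 to 632 without 1 mouse. The median change was 0.034 with the scanner software's processed signals, -0.03 in the authors' value table (2941 region probes) and -0.00 to 0.00 without 1 mouse. The count that followed the macrophage mean was 2133 with median centring, 908 of 2941 in the authors' value table (136 positive, 772 negative) and 369 to 473 without 1 mouse. Detection on all 24 arrays left 1339 probes, and 73 regions with both strands; without 1 mouse these were 3028 to 3147 and 241 to 257. The count that differed between slides was 0 to 2 without 1 mouse. With median centring the slopes of A_30_P01020518, A_30_P01020751, A_30_P01028388 and A_30_P01028806 reversed to 0.019, 0.22, 0.087 and 0.17, and that of A_30_P01027254 fell short of the threshold at -0.017, where the median slope of all detected probes moved from 0.01 to 0.31. Without No NR mouse 74, chosen after seeing the data, the difference of A_30_P01031270 reversed from -0.39 to 0.054. For the 12 leading probes, 144 of 156 differences recomputed with all mice kept their direction and side of the threshold, and the other 12, all with array weights, passed it in the same direction. With 1 mouse left out, 43 of 288 passed it, among them all 12 probes without Ctrl NR 117 or 68, and 0 reversed. Aquantile after loess leaves ratios as they are by construction, so it returned the same values. Other detection filters and other eBayes options also leave a probe's difference unchanged by construction, so no direction could reverse there. Keeping outlier-flagged spots returned the same differences for these 12 probes. The causes of these changes were not tested. Dim signal limits the rest: 13033 region probes were not detected on 12 arrays, and no statement is made on their levels.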
